A study of Mus musculus with 12 samples.

Results

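The non-additive interaction of losing Nkx2-5 and losing Tbx5 was measured in dissected mouse hearts of stage E8.75, early in chamber formation. For each gene the term is the double KO mean minus the Nkx2-5 KO mean minus the Tbx5 KO mean plus the WT mean, on the log2 scale. It is 0 where the double KO change equals the sum of both single KO changes. It is also the effect of Nkx2-5 loss without Tbx5 (double KO minus Tbx5 KO) minus the effect with Tbx5 (Nkx2-5 KO minus WT). The term was computed for 19938 genes, taken from the 21789 of 35557 probe sets with exactly 1 gene symbol.

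The 4 groups had 3 Affymetrix arrays each, 12 in all. They were Tbx5 KO;Nkx2-5 KO hearts, called double KO below, Nkx2-5 KO hearts, Tbx5 KO hearts and WT hearts. The labels give no allele, strain or pooling. They number the arrays as biological replicates, and p-values measure the spread between them. Heart muscle genes were high on every array: Actc1 lay between 14.08 and 14.16 log2 units, Tnnt2 between 13.98 and 14.30, and Myl7 between 13.82 and 13.93. The Nkx2-5 and Tbx5 probe sets had terms of 0.14 ± 0.15 and -0.20 ± 0.21 and did not pass the test (adjusted p = 0.858 and 0.850). Neither lost its signal in its own KO: Nkx2-5 averaged 8.94 in Nkx2-5 KO and 9.35 in WT hearts, and Tbx5 averaged 10.53 in Tbx5 KO and 10.06 in WT hearts. A probe set outside a removed part of a gene checks nothing, and the labels do not say which part was removed.

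Sex-linked genes split the arrays by Nkx2-5 genotype. Xist, the RNA of the inactive X chromosome, read 6.44 to 8.16 in double KO and 6.59 to 7.03 in Nkx2-5 KO, against 11.46 to 12.32 in Tbx5 KO and 11.50 to 11.87 in WT hearts. The Y-linked gene Eif2s3y read 10.37 to 10.61 in double KO and 10.33 to 10.67 in Nkx2-5 KO, against 5.13 to 5.68 in Tbx5 KO and 5.07 to 6.92 in WT hearts. Nkx2-5 loss and sex therefore cannot be told apart. This holds for the term as well: it is the effect of Tbx5 loss on the double KO and Nkx2-5 KO side minus that on the Tbx5 KO and WT side, so a Tbx5 effect that depends on Nkx2-5 and one that depends on sex give the same term. The terms of the sex-linked genes themselves (0 of 8 called) do not bear on that.

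Nkx2-5 is a homeodomain protein and Tbx5 a T-box protein, and both bind DNA at heart genes, often together with the zinc finger protein Gata4. Both are needed for chamber formation, and mutations in either cause congenital heart disease. Where a pair of such factors acts on a gene, losing both may add up, may do no more than losing either, or may do more than the sum.

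The term passed the test in 109 genes, 0.547% of those tested, by limma with Benjamini-Hochberg adjustment over all genes. It was positive in 18 genes (0.0903%) and negative in 91 genes (0.456%). In the 18, the double KO lay above the sum of both single changes, and in the 91 below it. The unadjusted p was under 0.05 in 1772 genes, 8.89% of those tested, and the median term over all genes was 0.02. The term was at least 1 log2 unit in size in 79 of the 109. Its sign was the same when group means were taken on the linear scale in 109 of 109. Of these genes 41 kept their call in all 12 fits that left out 1 array. The total was 48 without Nkx2-5 KO replicate 1 and 264 without double KO replicate 3. It was 58, 67 and 55 without Tbx5 KO replicate 1, 2 and 3, 68 and 59 without double KO replicate 1 and 2, and 68 and 67 without WT replicate 1 and 3. The spread of values over probe sets was narrower on the double KO arrays, with SDs of 2.05 to 2.10, than on the other arrays, with SDs of 2.13 to 2.19. Quantile normalization, which gives all arrays the same spread, was run as an alternative. It gave 110 calls, 20 higher and 90 lower, of which 97 were among the 109. Beyond that, the part of the spread in the calls was not tested.

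**Figure D1:**
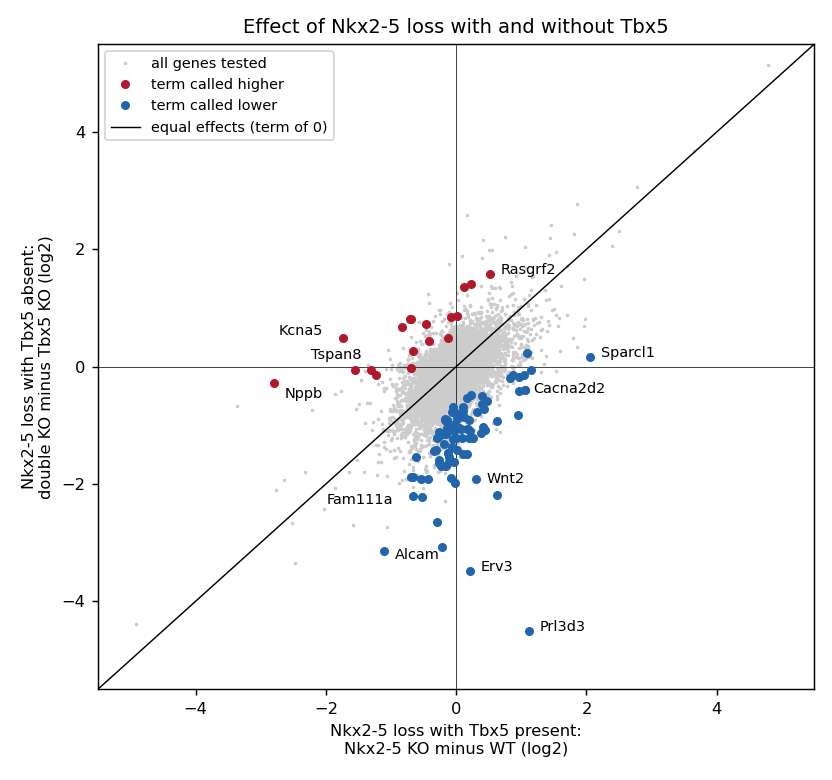
Each point is a gene, with the effect of Nkx2-5 loss where Tbx5 is present (Nkx2-5 KO minus WT, log2) on the x axis and where Tbx5 is absent (double KO minus Tbx5 KO, log2) on the y axis; the line marks equal effects. The 18 genes with a positive called term lie above the line and the 91 with a negative one below it, with Prl3d3 farthest from it.

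The called genes fell into a few forms. In 10 genes both single KOs were called lower than WT and the term was positive. In 6 genes both single KOs were called higher than WT and the term was negative. In 30 genes Tbx5 KO was called higher than WT and double KO lower than Tbx5 KO. In 8 genes Nkx2-5 KO was called higher than WT and double KO lower than Nkx2-5 KO. In 43 genes neither single KO was called and double KO was called lower than WT. For scale, double KO was called different from WT in 23.4% of all genes and lower in 14.4%. Nkx2-5 KO was called different in 4.43%, higher in 1.84% and lower in 2.59%. Tbx5 KO was called different in 2.31%, higher in 0.998% and lower in 1.31%. Double KO was called lower than Tbx5 KO in 7.86% and lower than Nkx2-5 KO in 4.55%. Each of these shares is for a single contrast, and the shares of all genes with the joint forms are not given. All 3 Tbx5 KO arrays lay above the other 9 in 40 of the 91 genes with a negative term and in 1.25% of all genes. These contrasts share arrays with the term, so these counts are a description. On the X chromosome 8 of 739 genes were called (1.08%, against 0.547% of all genes), with negative terms, as in 91 of all 109 calls.

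The highest positive terms belonged to Nppb and Kcna5, which were lower in every KO group than in WT. In the ion channel and conduction list 3 of 27 measured genes were called, Kcna5 with a positive term and Cacna1d and Cacna2d2 with negative ones, and the median term was 0.12. Nppb, which encodes B-type natriuretic peptide, a hormone of working chamber muscle, had the highest term. It read 9.16, 9.79 and 9.07 in double KO, 10.14, 9.93 and 9.96 in Nkx2-5 KO, 10.08, 9.78 and 8.99 in Tbx5 KO, and 12.79, 13.13 and 12.49 in WT hearts. The WT arrays lay above all others, the double KO arrays lay below the Nkx2-5 KO arrays, and the Tbx5 KO arrays overlapped both. Nppb was called lower than WT in all 3, with changes of -3.46 in double KO, -2.80 in Nkx2-5 KO and -3.19 in Tbx5 KO hearts, and the single changes sum to -5.98. The term was 2.52 ± 0.37 (SE, n = 3 arrays a group, adjusted p = 0.00923).

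Kcna5, a voltage-gated potassium channel of atrial muscle, showed the same form. Its levels were 8.18, 7.72 and 8.06 in double KO, 7.95, 8.09 and 8.62 in Nkx2-5 KO, 7.71, 7.65 and 7.16 in Tbx5 KO, and 9.82, 9.94 and 10.08 in WT hearts. The WT arrays lay above all others and the double KO arrays overlapped the Nkx2-5 KO arrays. Kcna5 changed by -1.96 in double KO, -1.73 in Nkx2-5 KO and -2.44 in Tbx5 KO hearts, and the term was 2.21 ± 0.27 (adjusted p = 0.00443). Tspan8, a tetraspanin membrane protein, read 6.45, 6.47 and 6.24 in double KO, 6.50, 6.43 and 6.65 in Nkx2-5 KO, 6.67, 6.28 and 6.38 in Tbx5 KO, and 8.07, 8.21 and 7.97 in WT hearts. The 3 KO groups overlapped and WT stood above them, with a term of 1.5 ± 0.17 (adjusted p = 0.00353). The KO signals were low: the Y-linked gene Eif2s3y read 5.13 to 5.68 in Tbx5 KO and 5.07 to 6.92 in WT hearts. A signal near the lower limit of the array may be unable to fall by the sum of both changes. The part of that limit in the Tspan8 term was not tested.

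The 250 bases before the starts of Nppb and Kcna5, from RefSeq (GRCm38.p6), are shown because these genes had the highest terms. Capitals mark matches on either strand to motifs of 3 factor families. The T-box core was searched as AGGTGT. The Nkx2-5 site was searched as TNAAGTG. The site of GATA factors was searched as AGATAA.
Nppb, chr4:147985650-147985899, plus strand: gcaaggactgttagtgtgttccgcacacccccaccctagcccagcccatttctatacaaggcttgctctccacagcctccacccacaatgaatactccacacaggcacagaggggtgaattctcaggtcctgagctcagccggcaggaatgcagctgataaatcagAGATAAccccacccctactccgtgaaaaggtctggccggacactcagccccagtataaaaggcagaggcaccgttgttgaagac
Kcna5, chr6:126535556-126535805, minus strand: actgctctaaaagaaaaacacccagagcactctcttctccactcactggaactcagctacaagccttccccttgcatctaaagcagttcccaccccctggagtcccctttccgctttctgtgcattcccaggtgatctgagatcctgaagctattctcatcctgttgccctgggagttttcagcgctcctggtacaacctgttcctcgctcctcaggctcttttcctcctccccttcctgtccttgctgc
The Nppb window holds 1 AGATAA, and the Kcna5 window none of the 3 motifs. Of all 32851 RefSeq entries, 11.8% hold AGGTGT, 10.1% TNAAGTG and 9.99% AGATAA in that window. Of the 14 of 18 genes with a positive called term that have an entry, 1 holds AGGTGT, 0 hold TNAAGTG and 1 holds AGATAA.

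In the atrioventricular canal and inflow tract list 3 of 17 measured genes were called, Shox2 and Nr2f1 with positive terms and Wnt2 with a negative one, and the median term was 0.10. Shox2, a homeobox factor of the sinus node, read 7.0, 7.50 and 7.42 in double KO, 6.74, 6.67 and 7.11 in Nkx2-5 KO, 6.52, 6.53 and 6.41 in Tbx5 KO, and 7.48, 7.40 and 7.74 in WT hearts. It changed by -0.23 in double KO (adjusted p = 0.281), by -0.70 in Nkx2-5 KO and by -1.06 in Tbx5 KO hearts, and the term was 1.52 ± 0.21 (adjusted p = 0.00760). Nr2f1, a nuclear receptor of atrial muscle, read 9.10, 8.82 and 8.70 in double KO, 8.70, 8.41 and 9.12 in Nkx2-5 KO, 7.91, 8.07 and 8.20 in Tbx5 KO, and 9.48, 9.46 and 9.41 in WT hearts.

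The Nr2f1 term was 1.52 ± 0.23 (adjusted p = 0.0109), with a double KO change of -0.58 that was called. Its double KO arrays overlapped the Nkx2-5 KO arrays and no others. Mab21l2, needed for early heart and eye development in mice, had a term of 1.5 ± 0.24 (adjusted p = 0.0150), with -0.28 in double KO, -0.83 in Nkx2-5 KO and -0.95 in Tbx5 KO hearts. The other genes lower in both single KOs were Casq2, which buffers calcium in the sarcoplasmic reticulum, with a term of 1.26, Tmem163, a zinc transporter, with 1.08, Kcnip1, a potassium channel subunit, with 0.94, and Lpar3, a lysophosphatidic acid receptor, with 0.68. Aard was called lower in Tbx5 KO only among the 3 KO groups and had a term of 1.19 ± 0.22. Of these, Tmem163 kept its call in 8 of the 12 fits that left out 1 array, Casq2, Kcnip1 and Aard in 4, and Lpar3 in 0.

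Nppa, the A-type natriuretic peptide beside Nppb, fell further in the double KO than in either single KO. It read 8.01, 8.37 and 8.02 in double KO, 11.26, 10.08 and 10.82 in Nkx2-5 KO, 10.45, 10.09 and 9.63 in Tbx5 KO, and 13.29, 13.52 and 13.29 in WT hearts. The double KO arrays lay below all others. Its changes of -5.24 in double KO, -2.65 in Nkx2-5 KO and -3.31 in Tbx5 KO hearts left a term of 0.72 ± 0.37, which did not pass the test (adjusted p = 0.618). Gja5, a gap junction protein of fast-conducting muscle, had a term of 1.34 ± 0.51 (adjusted p = 0.423). Terms of the other cardiac genes chosen for display were -0.45 for Bmp10, 0.25 for Hcn4, -0.34 for Myl2, -0.52 for Isl1, -0.50 for Tbx20, -0.75 for Myh6 and -0.09 for Gata4, none of which passed the test (adjusted p = 0.156 to 0.929). Across the chamber and trabecular list, 2 of 22 measured genes were called (Nppb and Kcna5), and the median term was 0.01. Of the 22, 11 terms were below 0, and 12 had an unadjusted p under 0.05, against 8.89% of all genes. In the sarcomere list 0 of 38 were called, and the median was 0.02. An unadjusted p under 0.05 was found for 12 of them, and for 8.89% of all genes.

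**Figure D2:**
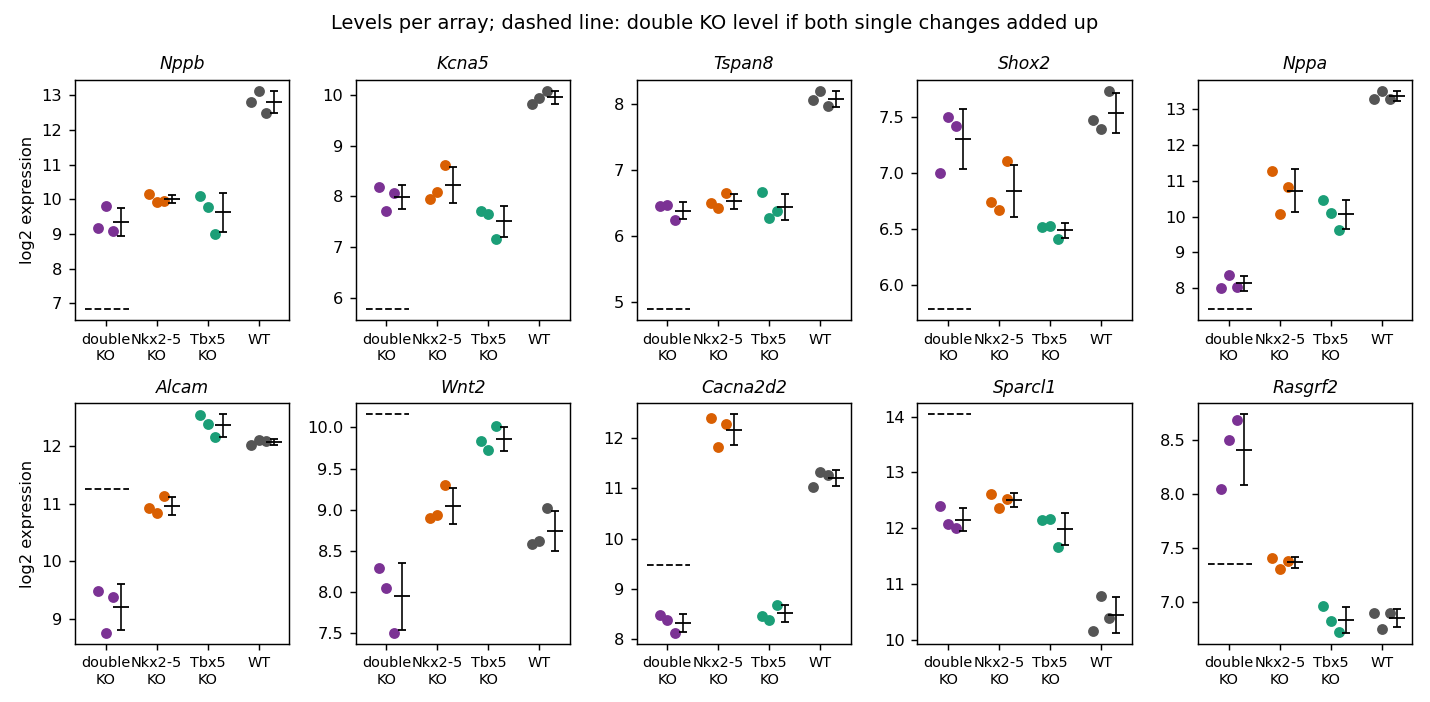
Log2 expression of 10 genes on each of the 12 arrays, with the mean and SD of each group beside its points; the dashed line marks the double KO level at which the term would be 0. Nppb, Kcna5, Tspan8 and Shox2 lie above that line in double KO hearts, and Alcam, Wnt2, Cacna2d2 and Sparcl1 lie below it. Nppa also lies above it, by a term that did not pass the test.

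Called genes of mitosis were lower in double KO hearts, and no change of theirs in a single KO was called. Among the 91 negative terms, 20 are known for roles in mitosis and 10 for roles in DNA replication and repair, grouped after the values were seen. Of the 20 mitosis genes, 0 were called in Nkx2-5 KO and 0 in Tbx5 KO against WT, while 20 were called lower in double KO. All 3 double KO arrays lay below the other 9 in 20 of 20. That holds for 7.53% of all genes, but the 20 were picked from genes called on these arrays, so nothing is read from the difference. Their median change was -1.35 in double KO, -0.11 in Nkx2-5 KO and 0.10 in Tbx5 KO hearts. In bulk tissue, fewer cells of a type and less RNA per cell cannot be told apart.

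Spc25, a subunit of the Ndc80 kinetochore complex, had the lowest term of this group. It read 8.85, 9.24 and 9.76 in double KO, 10.95, 10.97 and 10.79 in Nkx2-5 KO, 11.22, 11.09 and 11.24 in Tbx5 KO, and 10.96, 11.06 and 10.92 in WT hearts. The double KO arrays stood apart below the rest, and the term was -1.82 ± 0.24 (adjusted p = 0.00666). Kif11, the kinesin that separates spindle poles, read 9.84, 10.18 and 10.62 in double KO, 11.52, 11.55 and 11.40 in Nkx2-5 KO, 11.78, 11.73 and 11.75 in Tbx5 KO, and 11.54, 11.78 and 11.49 in WT hearts, with a term of -1.43 ± 0.22 (adjusted p = 0.0136). Knl1, a kinetochore scaffold, had a term of -1.54 ± 0.17, Birc5 (survivin), of the chromosomal passenger complex, -1.46 ± 0.18, and Foxm1, a transcription factor of mitotic genes, -1.30 ± 0.18. Aurkb, the kinase of the passenger complex, had -1.05 ± 0.20 (adjusted p = 0.0416) and kept its call in 1 of the 12 fits that left out 1 array.

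The replication and repair genes followed the same form, apart from Wrn. Dscc1, which helps load the replication clamp, read 8.13, 8.39 and 8.50 in double KO, 9.98, 10.45 and 9.61 in Nkx2-5 KO, 10.46, 10.54 and 10.72 in Tbx5 KO, and 10.32, 10.56 and 10.74 in WT hearts. Its term was -1.71 ± 0.26 (adjusted p = 0.0132), with the double KO arrays below all others. Bard1, the partner of Brca1, had a term of -1.66 ± 0.28 (adjusted p = 0.0210) on the probe set kept, while its other probe sets gave -0.94 and -0.39 and were not called. Its call held in 8 of the 12 fits that left out 1 array. Wrn, a DNA helicase, changed by -0.07 in double KO and was called higher in Tbx5 KO, by 0.43.

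The 30 genes were picked from those called on these arrays, so their mean level restates that choice and is given only to show single arrays. The mean difference from WT was -1.55, -1.30 and -1.09 on double KO replicates 1, 2 and 3, -0.17, -0.05 and -0.24 on the Nkx2-5 KO arrays, 0.15, 0.09 and 0.14 on the Tbx5 KO arrays, and -0.05, 0.10 and -0.05 on the WT arrays. Among the 30, 9 kept their call in all 12 fits that left out 1 array. The separate cell cycle list, written with earlier results of these data known, had 2 of 41 measured genes called (Kif11 and Aurkb), both lower. Its median term was -0.65, and 36 of 41 terms were below 0. An unadjusted p under 0.05 was found for 25, which is 61.0% of the list, against 8.89% of all genes. The list's median change was -1.05 in double KO, -0.25 in Nkx2-5 KO and -0.12 in Tbx5 KO hearts. Its mean level was 9.74, 9.78 and 10.3 in double KO and 10.91, 10.84 and 10.95 in WT hearts. It was 10.61, 10.76 and 10.56 in Nkx2-5 KO and 10.77, 10.71 and 10.75 in Tbx5 KO, each below each WT array.

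**Figure D3:**
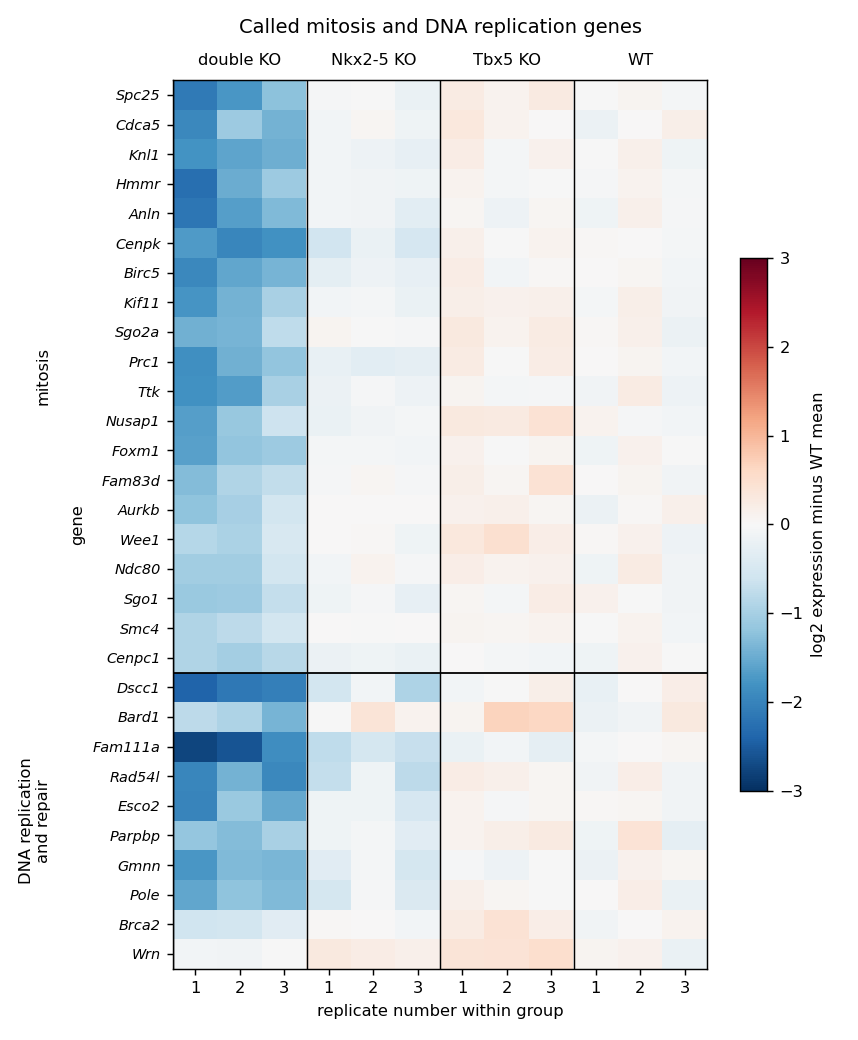
Log2 expression minus the WT mean for the 20 mitosis genes (upper block) and 10 DNA replication and repair genes (lower block) with a called term, one column per array. The 3 double KO columns are the lowest in nearly every gene. Single genes range from -0.93 to 0.39 on the Nkx2-5 KO arrays, -0.28 to 0.68 on the Tbx5 KO arrays and -0.27 to 0.40 on the WT arrays.

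The 250 bases before the starts of Kif11 and Cdca5, a cohesin regulator (sororin) with a term of -1.58 ± 0.25, are shown as examples of division gene promoters, from RefSeq (GRCm38.p6). Capitals mark matches on either strand to TTTGAA (the CHR element of cell cycle genes) or CCAAT (the NF-Y site).
Kif11, chr19:37376132-37376381, plus strand: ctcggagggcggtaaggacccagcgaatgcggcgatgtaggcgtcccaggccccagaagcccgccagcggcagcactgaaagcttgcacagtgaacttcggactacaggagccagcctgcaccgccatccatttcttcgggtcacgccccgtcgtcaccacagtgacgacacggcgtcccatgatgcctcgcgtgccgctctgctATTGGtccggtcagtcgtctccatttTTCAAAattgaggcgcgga
Cdca5, chr19:6084847-6085096, plus strand: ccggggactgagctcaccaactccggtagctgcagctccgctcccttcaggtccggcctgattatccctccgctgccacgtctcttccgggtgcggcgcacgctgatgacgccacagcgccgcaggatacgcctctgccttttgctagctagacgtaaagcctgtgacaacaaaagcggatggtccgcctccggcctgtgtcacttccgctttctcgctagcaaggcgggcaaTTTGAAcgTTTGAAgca
Kif11 holds 1 match to each motif, both on the reverse strand, and Cdca5 holds 2 TTTGAA. Of the 21 of 30 genes with an entry, 5 hold TTTGAA and 11 hold CCAAT, and over all entries the shares are 16.0% and 33.8%.

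The called placental genes were high in Tbx5 KO hearts, and none was called different from WT in double KO hearts. In the trophoblast and decidua list 8 of 32 measured genes were called, all with negative terms. Over the whole list 18 of 32 terms were below 0. The list's median term was -0.07 and its median Tbx5 KO change 0.15. Prl3d3, a placental lactogen, read 5.61, 4.98 and 5.57 in double KO, 5.94, 7.40 and 6.72 in Nkx2-5 KO, 10.56, 9.71 and 9.40 in Tbx5 KO, and 5.25, 5.79 and 5.67 in WT hearts. The Tbx5 KO arrays stood above all others, and the term was -5.62 ± 0.49 (adjusted p = 0.000585), the lowest among the called genes.

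Erv3 read 7.65, 7.33 and 7.24 in double KO, 7.50, 7.54 and 7.64 in Nkx2-5 KO, 10.43, 10.94 and 11.27 in Tbx5 KO, and 7.28, 7.16 and 7.60 in WT hearts, with a term of -3.69 ± 0.27 (adjusted p = 0.000114). The prolactin family genes Prl8a2, Prl2c5, Prl7a1 and Prl4a1 had terms of -2.87, -2.82, -1.96 and -1.02, and the X-linked homeobox genes Rhox9 and Rhox6 had -1.60 and -1.48. Prolactin family genes are close relatives, and signal shared between their probe sets was not tested. Prl4a1 kept its call in 2 of the 12 fits that left out 1 array, and the others in all 12. The mean level of the list was 7.22, 7.23 and 7.18 in double KO, 7.14, 7.18 and 7.24 in Nkx2-5 KO, 7.97, 7.90 and 7.86 in Tbx5 KO, and 7.21, 7.21 and 7.30 in WT hearts. The Tbx5 KO arrays lay above the rest. This mean includes the 8 called genes, which averaged 2.60, 2.47 and 2.49 above the WT mean on the Tbx5 KO arrays. It therefore partly restates those calls and is no separate result. The part of placental tissue in these calls was not tested.

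The 250 bases before the Prl3d3 start (RefSeq, GRCm38.p6) are shown because the gene had the lowest term, and hold none of the 5 motifs named above.
Prl3d3, chr13:27156544-27156793, plus strand: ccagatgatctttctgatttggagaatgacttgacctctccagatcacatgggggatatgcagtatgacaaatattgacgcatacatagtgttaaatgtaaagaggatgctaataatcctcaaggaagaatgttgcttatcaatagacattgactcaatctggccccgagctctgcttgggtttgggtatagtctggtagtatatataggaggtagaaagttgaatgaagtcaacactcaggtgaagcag

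**Figure D4:**
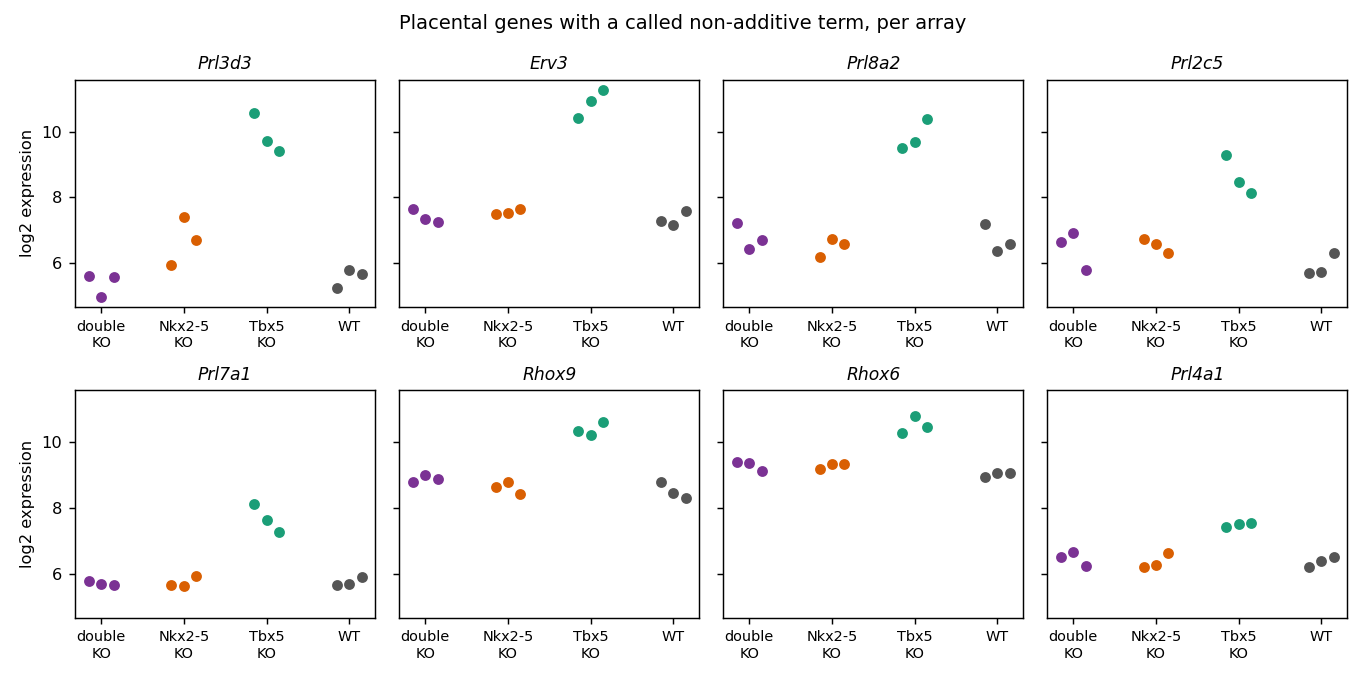
Log2 expression of the 8 called placental genes on each of the 12 arrays, by group. Tbx5 KO arrays lie above the arrays of the other groups in each gene, from 9.40 to 10.56 in Prl3d3.

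Ligands and an effector of Wnt signals were among the genes called higher in Tbx5 KO. Wnt2, a canonical Wnt ligand of the early heart, read 8.29, 8.04 and 7.50 in double KO, 8.90, 8.93 and 9.30 in Nkx2-5 KO, 9.83, 9.73 and 10.02 in Tbx5 KO, and 8.58, 8.62 and 9.02 in WT hearts. It was called lower in double KO (-0.80) and higher in Tbx5 KO (1.12), and the term was -2.22 ± 0.27 (adjusted p = 0.00443). Wnt5a, a non-canonical Wnt ligand, rose by 1.44 in Tbx5 KO and had 0.23 in double KO, with a term of -1.31 ± 0.18. Lef1, the nuclear effector of canonical Wnt signals, rose by 1.40 in Tbx5 KO and had 0.20 in double KO, with a term of -1.40 ± 0.19. In the Wnt list these were the 3 called of 24 measured genes, the median term was 0.11 and the median Tbx5 KO change 0.02.

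Bmp5, a BMP ligand, read 11.54, 11.40 and 11.43 in double KO, 12.01, 11.89 and 11.98 in Nkx2-5 KO, 12.59, 12.41 and 12.49 in Tbx5 KO, and 11.99, 11.97 and 11.89 in WT hearts. It was below WT in double KO (-0.50) and above it in Tbx5 KO (0.55), with a term of -1.05 ± 0.12 (adjusted p = 0.00402). It was the 1 called of 18 measured genes in the BMP list, whose median term was -0.02. S100a6, a calcium-binding protein, changed by -1.10 in double KO, -0.30 in Nkx2-5 KO and 1.55 in Tbx5 KO, with a term of -2.35 ± 0.41 (adjusted p = 0.0288) and its call kept in 6 of the 12 fits. Cacna1d, an L-type calcium channel of pacemaker cells, had a change of 0.71 in Tbx5 KO that did not pass the test (adjusted p = 0.0523), and a term of -1.44 ± 0.24 (adjusted p = 0.0210), with its call kept in 7 of 12. Hand1, a factor of the left ventricle and of trophoblast, rose by 1.18 in Tbx5 KO and had -0.17 in double KO, and its term of -0.84 ± 0.18 did not pass the test (adjusted p = 0.0743).

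Alcam, a cell adhesion molecule of early heart muscle, fell beyond the sum of both single changes. It read 9.49, 8.76 and 9.38 in double KO, 10.92, 10.83 and 11.14 in Nkx2-5 KO, 12.53, 12.39 and 12.15 in Tbx5 KO, and 12.01, 12.11 and 12.09 in WT hearts. Double KO arrays lay below all others. Alcam fell by 2.86 in double KO and fell by 1.11 in Nkx2-5 KO, against a change of 0.28 in Tbx5 KO that did not pass the test, and the term was -2.04 ± 0.24 (adjusted p = 0.00421). Crip2, a LIM domain protein, fell in all 3 KO groups, with changes of -2.41 in double KO, -0.70 in Nkx2-5 KO and -0.52 in Tbx5 KO, with a term of -1.19 ± 0.16.

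Cacna2d2, Atp8a1 and Sphkap were called higher in Nkx2-5 KO than in WT hearts, and lower in double KO. Cacna2d2, a calcium channel subunit, read 8.48, 8.38 and 8.13 in double KO, 12.39, 11.82 and 12.28 in Nkx2-5 KO, 8.47, 8.38 and 8.69 in Tbx5 KO, and 11.02, 11.32 and 11.27 in WT hearts. Double KO and Tbx5 KO arrays overlapped. The effect of Nkx2-5 loss was -0.18 without Tbx5 and 0.96 with it, and the term was -1.14 ± 0.22 (adjusted p = 0.0406), a call kept in 3 of the 12 fits. Atp8a1, a lipid flippase, and Sphkap, an anchoring protein for protein kinase A, had terms of -1.20 and -1.01, each kept in 4 of 12. Vsnl1, a calcium sensor, missed the threshold with -1.31 ± 0.26 (adjusted p = 0.0502).

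Other genes rose in each KO, by less in the double KO than the sum. Sparcl1, a secreted matrix protein, averaged 12.15 ± 0.21 in double KO hearts (SD, n = 3 in each group). The Nkx2-5 KO mean was 12.50 ± 0.13, the Tbx5 KO mean 11.99 ± 0.28 and the WT mean 10.45 ± 0.32. WT arrays lay below all others, and the term was -1.89 ± 0.25 (adjusted p = 0.00646). A2m, a protease inhibitor, had -1.79 ± 0.35 (adjusted p = 0.0454), and its call held in 2 of the 12 fits.

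A small set was highest in double KO hearts. All 3 double KO arrays lay above the other 9 in 7 of the 18 genes with a positive term. The share over all genes was 4.64%, and since the 18 were called on these arrays nothing is read from it. Rasgrf2, an exchange factor for Ras, read 8.05, 8.50 and 8.69 in double KO, 7.41, 7.31 and 7.38 in Nkx2-5 KO, 6.96, 6.82 and 6.72 in Tbx5 KO, and 6.90, 6.75 and 6.90 in WT hearts, with a term of 1.06 ± 0.20 (adjusted p = 0.0362). Ccn2, a matrix-associated growth factor, had a term of 1.23 ± 0.20, Itga9, an integrin, 1.17 ± 0.23, and Sema6d, a guidance molecule with a role in chamber muscle, 0.92 ± 0.18. Their calls held in 3, 7, 2 and 2 of the 12 fits for Rasgrf2, Ccn2, Itga9 and Sema6d.

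**Figure D5:**
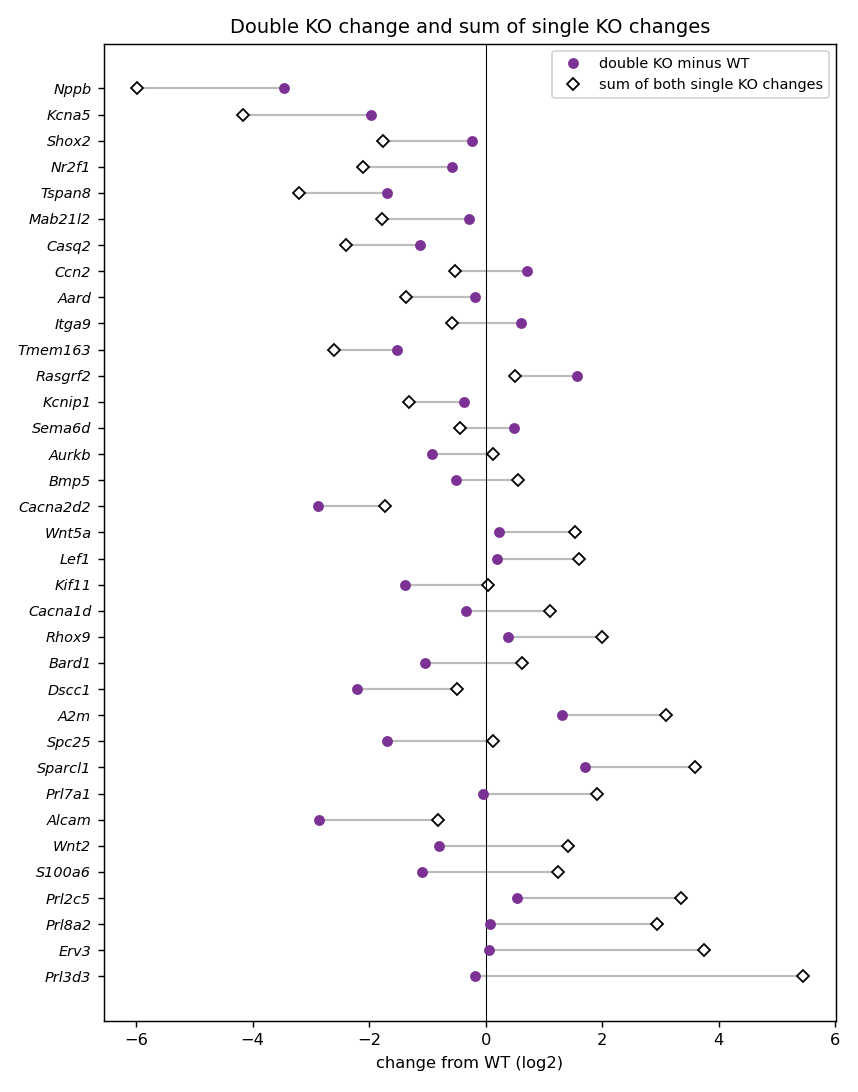
Change from WT (log2) in double KO hearts (filled circles) and the sum of the Nkx2-5 KO and Tbx5 KO changes (open diamonds) for the 35 named genes with a called term, ordered by the term. Circles lie right of the diamonds for positive terms, as in Nppb (-3.46 against -5.98), and left of them for negative terms.

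The Mir20a probe set, chosen after its values were seen, read 6.31, 6.77 and 6.34 in double KO, 7.29, 7.84 and 7.25 in Nkx2-5 KO, 7.45, 7.35 and 7.42 in Tbx5 KO, and 6.73, 6.75 and 7.01 in WT hearts. Its term was -1.56 ± 0.23 (adjusted p = 0.00923). The other measured members of its cluster had terms of -0.05 for Mir17, -0.45 for Mir18, -0.37 for Mir19a, -1.05 for Mir19b-1 and -0.50 for the host gene Mir17hg, none of which passed the test (adjusted p = 0.247 to 0.972). The mature sequence, which this probe set does not measure apart from its precursor, is shown with that of miR-17 because they share a seed, in capitals (bases 2 to 8, RefSeq, GRCm38.p6).
miR-20a-5p: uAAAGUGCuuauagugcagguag
miR-17-5p: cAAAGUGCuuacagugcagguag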

How the data were processed

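The authors deposited log2 expression values, 1 per probe set and array, and the labels name no software for background correction or summarization. A PicoPure kit, NuGEN Ovation amplification and biotin labelling were used, per the labels' protocols. Values ran from 3.21 to 14.7, array medians from 8.05 to 8.25, and no further normalization was applied. Precision is limited by the 3 arrays of each group.

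The platform's annotation gave the names: 21789 had 1 symbol, 1621 several and 12147 none listed. By Entrez number, 21698 matched RefSeq (GRCm38.p6), which also gave chromosomes, gene order and sequences. For 999 genes with several probe sets, the one with the highest mean was kept.

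In R 4.3.3, limma 3.58.1 (lmFit, eBayes) fitted 4 group means to the 12 arrays, with 8 residual and 4.51 prior degrees of freedom. Two-sided p-values were adjusted by Benjamini and Hochberg over 19938 genes and called under 0.05. Changes are log2 differences ± SE. The script was tested on simulated data.

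The members and the 37 gene lists (915 entries) were chosen with earlier results of these data known. Named genes are the targeted genes, 10 cardiac genes, the 14 largest called terms in each direction (leaving out predicted genes, clones, microRNAs, small nucleolar RNAs and sensory receptors), and, from each list, its 3 called members with the largest terms or fewer. Any other gene was picked with its values in view. Alternatives, 21 in all, were normalizations, variance models, array weights, a filter on dim genes, probe set rules, a replicate block and leaving out each array. Tables were made with pandas 2.3.3 and numpy 2.4.6 in Python 3.11.15, and plots with matplotlib 3.10.9.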

Additional observations from a re-analysis of the deposited data

Results flagged for a closer look

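Each gene here had an effect of Nkx2-5 loss that differed with and without Tbx5, by the test of the term itself. The genes were chosen for that term, so the values repeat the calls. Above the sum of both single changes were Nppb (2.52), Kcna5 (2.21), Shox2 (1.52), Nr2f1 (1.52), Tspan8 (1.5), Mab21l2 (1.5), Casq2 (1.26), Ccn2 (1.23), Aard (1.19), Itga9 (1.17), Tmem163 (1.08), Rasgrf2 (1.06), Kcnip1 (0.94) and Sema6d (0.92). Below it were the placental genes Prl3d3 (-5.62), Erv3 (-3.69), Prl8a2 (-2.87), Prl2c5 (-2.82), Prl7a1 (-1.96) and Rhox9 (-1.60). The division and repair genes there were Spc25 (-1.82), Dscc1 (-1.71), Bard1 (-1.66), Kif11 (-1.43) and Aurkb (-1.05). The remaining ones were S100a6 (-2.35), Wnt2 (-2.22), Alcam (-2.04), Sparcl1 (-1.89), A2m (-1.79), Cacna1d (-1.44), Lef1 (-1.40), Wnt5a (-1.31), Cacna2d2 (-1.14) and Bmp5 (-1.05).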

How the results depend on the processing

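No called gene changed the sign of its term in any of the 21 alternatives (0 changes), and 39 of the 109 kept their call in every alternative in which they were tested. Of the 35 named called genes, 21 did. The number of calls depended on the setting. Array weights gave 343 calls, 48 higher and 295 lower. Quantile normalization gave 110 calls, 97 of them shared with the main fit. Centring each array on its median gave 80, 79 of them shared. With the replicate number as a replicate block there were 61 calls, 10 higher and 51 lower, of which 58 were also called without the block. Deviations of same-numbered arrays correlated between -0.270 and 0.211, and 3 of 18 such pairs were over 0.1. Those of different-numbered arrays correlated between -0.260 and 0.261, and 9 of 36 were over 0.1. These values show no sign that the numbers pair the arrays, but with 3 arrays a group they cannot settle it. Leaving out 1 array gave 48 to 264 calls, 7 to 25 of them higher and 41 to 239 lower. The cause of these shifts was not tested. Over the named genes, calls were lost in 124 single values, and 3 values passed only under an alternative: Myh6 with array weights and without Nkx2-5 KO replicate 2, and Hand1 with array weights. With 3 arrays a group, a term that misses the threshold is not shown to be 0.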

Other observations

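Other called genes fitted the forms described above. Sfrp4, a secreted Wnt antagonist, rose by 1.28 in Tbx5 KO and had 0.22 in double KO, with a term of -1.23. Mitf, a basic helix-loop-helix factor, rose by 0.68 in Tbx5 KO and had -0.19 in double KO, with a term of -0.98. Its other probe set gave -0.29 and was not called, and the call was lost with the mean of both (adjusted p = 0.352, lowest 0.00260 over the alternatives, limma). Clic6, a chloride channel family member, rose by 1.06 in Nkx2-5 KO and fell by 0.56 in double KO, with a term of -1.45. St7 rose in all 3 KO groups, with a term of -1.20. In RefSeq gene order, St7 and Wnt2 are 1 step apart on chromosome 6, and Wnt2 and Cftr (term -1.25) are 2 steps apart. Rhox6 and Rhox9 are 2 steps apart on the X chromosome. Fut10 and Wrn, with terms of -0.85 and -0.72, are 2 steps apart on chromosome 8. Only called genes were searched for neighbours, and no share over all genes is given. Cftr signals were low, from 5.75 on a double KO array to 7.03 on a Tbx5 KO array.

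Some lists without a called gene leaned below 0, and others above it. In the hypoxia and glycolysis list 0 of 27 genes were called by limma, 4 had an unadjusted p under 0.05, 27 of 27 terms were negative and the median was -0.27. In the amino acid synthesis and unfolded protein stress list 0 of 32 were called, 12 had an unadjusted p under 0.05, 27 were negative and the median was -0.46. The mean level of the hypoxia list was 11.93, 11.93 and 11.94 in double KO, 11.94, 11.79 and 11.85 in Nkx2-5 KO, 11.70, 11.47 and 11.83 in Tbx5 KO, and 10.99, 11.56 and 11.22 in WT hearts. That of the stress list was 10.30, 9.97 and 10.10 in double KO, 10.34, 10.41 and 10.45 in Nkx2-5 KO, 10.18, 9.99 and 10.13 in Tbx5 KO, and 9.80, 10.11 and 9.82 in WT hearts. WT replicate 2 was the highest WT array in both lists and overlapped the Tbx5 KO arrays. Among lists that leaned above 0, the Hox list had 1 of 14 terms below 0 and a median of 0.10. The proepicardium and epicardium list had 4 of 18 below 0 and a median of 0.19. For the skeletal muscle and somite list these were 2 of 15 and 0.12. An unadjusted p under 0.05 was found for 1, 4 and 0 genes of these lists. Over all genes the median term was 0.02, and 8.89% had an unadjusted p under 0.05.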
